A study of Danio rerio with 17 samples.

Results

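The genes described here are receptors and extracellular or membrane modulators of Wnt signalling in sorted zebrafish cranial neural crest cells. They are the 7 genes ryk, fzd3a, fzd1, kremen1, dkk2, sfrp1a and vangl2, found by name among the 4169 gene IDs in 2 deposited tables of genes that differed between mutant and wild type cells. The prdm3 table holds 5 of them (ryk, fzd3a, kremen1, dkk2 and vangl2), the prdm16 table holds 3 (fzd1, kremen1 and sfrp1a), and kremen1 stands in both. A gene is in the prdm3 table only at an unadjusted p below 0.05 and in the prdm16 table only at q below 0.05. In every row the larger of the authors' 2 group means was also 1 or more, which may be a second filter. The members were thus selected on the mutant to wild type difference itself. Their levels are given as a description. Recounts by p among the processing alternatives at the end use these chosen rows and are no support for the differences.

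RNA-seq libraries were made from prdm3-/- (n = 3), prdm16-/- (n = 3) and wildtype (n = 3) embryos at 48 hours post fertilization. All carried the sox10:GFP reporter, and GFP positive cells were sorted from dissociated pools of embryos. The sox10 promoter is active in the crest and also in other tissues such as the otic vesicle and glia. The prdm3 comparison used here has 3 prdm3 mutant libraries and wild type replicates 2 and 3, and the prdm16 comparison has prdm16 mutant replicates 1 and 2 and all 3 wild type libraries. Wild type replicates 1 and 2 are named for prdm3 in their labels and replicate 3 for prdm16, so each comparison mixes wild type libraries named for both genes. Prdm16 mutant replicate 3 was not analysed here. The read depth is unknown, and the 8 ATAC-seq libraries of the series were not used here. Each value is an FPKM, a fragment count scaled by transcript length and by the mapped total, so it depends on what else a library holds. In such bulk samples fewer cells of a type and less RNA per cell cannot be told apart. Nothing in the labels says that the replicates came from separate pools of parents, so the spread given here may be technical.

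Wnt proteins are secreted signals that bind Frizzled receptors at the cell surface. With the co-receptors Lrp5 and Lrp6 they stabilise β-catenin, and through Ryk, Ror and the planar cell polarity proteins they steer cell movement and shape without it. Secreted and membrane proteins set how much signal a cell receives. Dickkopf proteins block the Lrp co-receptors, Kremen removes them from the surface together with Dickkopf, and secreted Frizzled-related proteins bind Wnt itself. In the zebrafish head these signals act on crest migration, on the stacking of cartilage cells and on their differentiation.

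Some facts of the whole tables bear on these genes. Of the 1520 genes listed for prdm3, 94.2% were higher in the mutant. Of the 2990 rows listed for prdm16, 2540 were at 0 in each of the 2 mutant libraries. They include psma4, a proteasome subunit, and ndufs5, a subunit of respiratory complex I. Both were picked with their values in view, and they stood at 20.3 to 34.7 and at 23.4 to 27.4 FPKM in the wild type libraries. A 0 in the prdm16 mutant libraries can therefore be a failed estimate, and genes at 0 are given by library, with no fold. Of 20 crest and arch markers, 4 were listed in the prdm3 table (hand2, msx1b, nr2f2 and prrx1a), with a sum of 86.6 to 90.9 FPKM in the mutant and 51.4 to 56.1 FPKM in the wild type libraries. The prdm16 table listed 3 (barx1, foxd3 and msx1b), with a sum of 0 to 2.01 FPKM in the mutant and 24.7 to 29.9 FPKM in the wild type libraries. The crest marker sox10 was in neither table, so the sort was not checked at its own gene. The mutated genes could not be used to check the genotypes either, since mecom (the zebrafish prdm3) is in neither table and no prdm16 ID is in the prdm16 table. In the prdm3 table the ID named PRDM16 (ENSDARG00000078324) stood at 72.2, 60.0 and 69.3 FPKM in the mutant and 54.2 and 49.5 FPKM in the wild type libraries (p = 0.0496 and q = 0.369 in the authors' deposited table). Of markers of other cells, the prdm3 table listed 2 of 6 pigment genes (24.7 to 32.9 FPKM summed in the mutant and 6.53 to 14.8 in the wild type libraries). It listed 1 of 6 glial markers (sox2, 16.5 to 21.4 FPKM in the mutant and 8.97 to 11.2 in the wild type libraries) and 2 of 6 neuronal markers, inab higher and sncb lower (8.05 to 11.1 summed in the mutant and 4.69 to 6.95 in the wild type libraries). It also listed 1 of 3 otic markers (oc90, 0.877 to 1.42 in the mutant and 0.268 to 0.425 in the wild type libraries) and 1 of 5 epidermal markers (krt91, 4.62 to 6.40 in the mutant and 1.55 to 2.41 in the wild type libraries). Of 4 muscle markers, tnnt3a was listed, at 0 to 0.591 FPKM in the mutant and 1.27 to 1.47 FPKM in the wild type libraries. The prdm16 table listed 1 of 4 blood markers (hbbe1.1, 0 in both mutant and 19.3 to 24.0 FPKM in the wild type libraries) and 2 of 7 cartilage genes (nkx3.2 and sox5, 48.8 to 51.1 FPKM summed in the mutant and 78.7 to 92.5 in the wild type libraries). Listed for prdm3 were 0 of 7 cartilage, 0 of 4 blood and 0 of 4 endothelial markers. For prdm16, 1 of 6 glial markers was listed (foxd3, counted above) and none of the pigment, neuronal, otic, epidermal, muscle or endothelial markers. Over all genes tested, 12.7% were listed higher and 0.783% lower for prdm3, and 27.4% lower and 0.734% higher for prdm16. The sums hold listed markers only, so their gaps follow from the choice of rows. The part of other cells in the results below was not tested.

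In prdm3 mutant cells the 5 listed Wnt genes stood above both wild type libraries in all 3 mutant libraries, by 1.20-fold in ryk to 2.20-fold in kremen1. Rows were chosen on this difference, and how many other listed rows show groups that do not overlap was not counted. The receptor genes ryk and fzd3a, the Lrp remover kremen1, the Dickkopf gene dkk2 and the polarity gene vangl2 were listed in the same direction. With libraries scaled to equal medians over the listed genes, however, the mean differences of ryk and vangl2 turn to the other direction. That of fzd3a falls to -0.051 on the log2 scale. That scaling lowers the median log2 difference of all listed genes by 0.61. It leaves 0.28 of the 0.89 of kremen1 and 0.14 of the 0.68 of dkk2. Over all 11242 genes tested, 12.7% were listed higher and 0.783% lower.

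The receptor gene ryk (ENSDARG00000007231) encodes a receptor tyrosine kinase-like protein that binds Wnt through a WIF domain. It was listed at 12.2, 12.5 and 12.4 FPKM in the prdm3 mutant libraries and at 10.04 and 10.6 FPKM in the wild type libraries. The mutant libraries lay close to each other and above both wild type libraries, and the groups did not overlap. The mean was 12.4 ± 0.141 FPKM in mutant (SD, n = 3) and 10.3 ± 0.366 FPKM in wild type cells (SD, n = 2), a log2 difference of 0.24 ± 0.03 (SE). Among the listed genes with higher mutant values, 1.26% had a smaller difference. Its p of 0.00299 in the authors' deposited table, with q = 0.251, goes with the narrow spread between libraries and not with a large difference.

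The Frizzled receptor gene fzd3a (ENSDARG00000021664), in zebrafish a part of the polarity pathway that guides axons and migrating neurons, was listed at 4.60, 4.30 and 4.70 FPKM in the prdm3 mutant libraries and at 2.46 and 3.10 FPKM in the wild type libraries. The lowest mutant library was 1.38 times the higher wild type library. The mean was 4.53 ± 0.208 FPKM in mutant and 2.78 ± 0.453 FPKM in wild type cells, a log2 difference of 0.55 ± 0.10 (p = 0.0117 and q = 0.296 in the authors' deposited table). The wild type pair spread more here than the mutant libraries did, and which wild type library is used moves the difference between 0.43 and 0.67.

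The gene kremen1 (ENSDARG00000062579) encodes a membrane receptor for Dickkopf proteins. It was listed at 4.81, 7.09 and 5.55 FPKM in the prdm3 mutant libraries and at 2.61 and 2.68 FPKM in the wild type libraries. This was the widest gap among the 5 genes, with the lowest mutant library at 1.79 times the higher wild type library. The mean was 5.82 ± 1.16 FPKM in mutant and 2.65 ± 0.0528 FPKM in wild type cells, 2.20-fold, with a log2 difference of 0.89 ± 0.18 (p = 0.0160 and q = 0.2996 in the authors' deposited table). Of the genes listed higher, 83.0% had a smaller difference.

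The gene dkk2 (ENSDARG00000076420) encodes a secreted Dickkopf protein that binds Lrp co-receptors and Kremen. It was listed at 3.46, 4.26 and 2.85 FPKM in the prdm3 mutant libraries and at 1.99 and 1.60 FPKM in the wild type libraries. The groups did not overlap, and the mutant libraries spread over 20.1% of their mean (coefficient of variation), close to the 19.98% of kremen1. The mean was 3.52 ± 0.706 FPKM in mutant and 1.80 ± 0.273 FPKM in wild type cells, 1.96-fold, with a log2 difference of 0.68 ± 0.18 (p = 0.0335 and q = 0.339 in the authors' deposited table). Both dkk2 and its receptor gene kremen1 were highest in prdm3 mutant replicate 2, the mutant library of this comparison with the word cleaned in its label. The gene ryk was highest there too, while fzd3a and vangl2 were lowest there. Without that library the log2 difference was 0.57 for dkk2 and 0.76 for kremen1.

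The gene vangl2 (ENSDARG00000027397) encodes a membrane protein at the core of the planar cell polarity pathway, needed in zebrafish for convergence and extension. It was listed at 21.8, 21.4 and 24.5 FPKM in the prdm3 mutant libraries and at 18.8 and 16.1 FPKM in the wild type libraries. The groups did not overlap, but the lowest mutant library was only 1.14 times the higher wild type library. The mean was 22.6 ± 1.70 FPKM in mutant and 17.4 ± 1.89 FPKM in wild type cells, 1.29-fold, with a log2 difference of 0.35 ± 0.11. Of the 5 genes it lay nearest the limit of the list, at p = 0.0477 (q = 0.365) in the authors' deposited table, whose largest listed p is 0.049996. Genes just outside that limit were not analysed here.

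**Figure D1:**
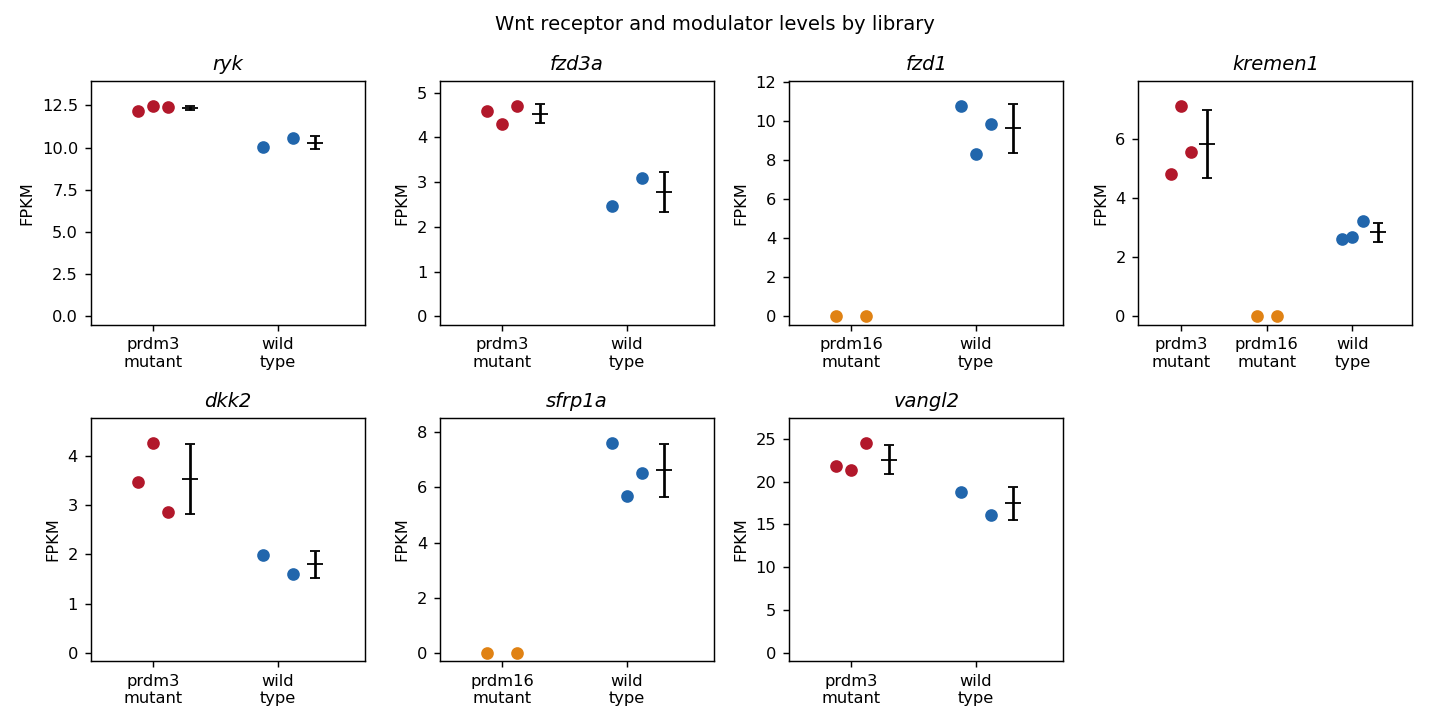
FPKM (vertical axis) of each gene in every library, with points for libraries and a bar for the mean and SD beside each group that is not at 0. The prdm3 mutant libraries lie above the wild type libraries in ryk, fzd3a, kremen1, dkk2 and vangl2 as deposited. After scaling to the medians of the listed genes, the mean log2 difference was -0.47 in ryk, -0.051 in fzd3a and -0.38 in vangl2 (not shown). The genes fzd1, kremen1 and sfrp1a are at 0 in both prdm16 mutant libraries.

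Set against all genes listed higher in prdm3 mutants, the 5 genes lay between 0.24 and 0.89 in their log2 difference. The median log2 difference of the genes listed higher was 0.64, with quartiles at 0.499 and 0.81. The polarity and receptor genes vangl2 and ryk lay below that range, fzd3a and dkk2 inside it, and kremen1 above it. The 5 genes thus included some of the smallest differences of the table and none of its largest.

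**Figure D2:**
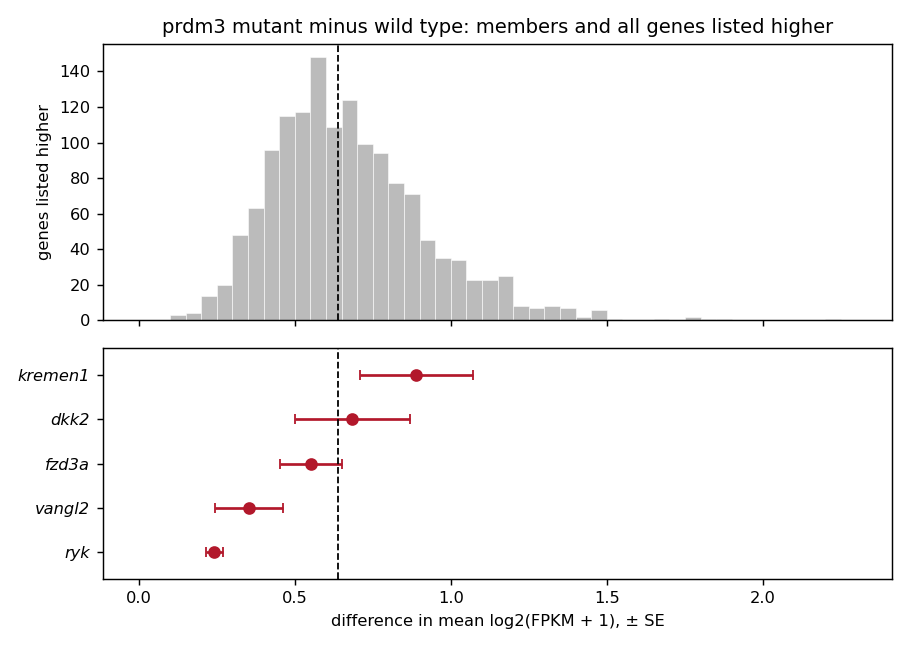
Upper panel, number of genes listed higher in prdm3 mutants by their difference in mean log2(FPKM + 1). Lower panel, the 5 Wnt genes with their SE (n = 3 mutant and 2 wild type libraries), and in both panels the dashed line at the median of 0.64, with kremen1 at 0.89 on its right and ryk at 0.24 on its left.

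Ratios within a library do not depend on how libraries are scaled. The FPKM of kremen1 was 0.395, 0.569 and 0.447 of that of ryk in the prdm3 mutant libraries and 0.260 and 0.254 of it in the wild type libraries. The ratio of fzd3a to ryk was 0.377, 0.345 and 0.378 in the mutant and 0.245 and 0.294 in the wild type libraries. That of dkk2 to ryk was 0.284, 0.342 and 0.229 in the mutant and 0.198 and 0.152 in the wild type libraries. In these 3 genes the mutant and wild type ratios did not overlap, so their levels differed from those of ryk by unequal amounts in the 2 genotypes. The ratio of vangl2 to ryk, 1.79, 1.72 and 1.97 in the mutant and 1.87 and 1.53 in the wild type libraries, overlapped between the groups. The ratio of kremen1 to fzd3a also overlapped, at 1.05, 1.65 and 1.18 in the mutant and 1.06 and 0.865 in the wild type libraries. These ratios come from the contrast that chose the genes and are a description. Of the genes listed higher, only 1.26% had a smaller difference than ryk, so a higher ratio to ryk in mutants is common among them. Its share over all listed genes was not counted.

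**Figure D3:**
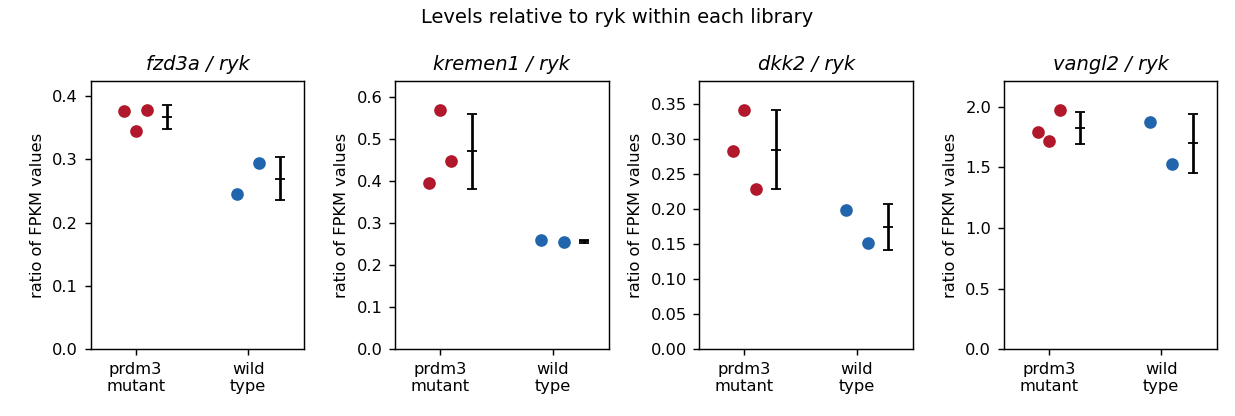
Ratio of the FPKM of fzd3a, kremen1, dkk2 and vangl2 to that of ryk in each library (vertical axis, from 0), with points for libraries and bars for mean and SD. The prdm3 mutant ratios lie above both wild type ratios for fzd3a, kremen1 and dkk2, and the groups overlap for vangl2.

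In prdm16 mutant cells the 3 listed Wnt genes were at 0 in both libraries, as were 84.9% of all rows listed for prdm16. Over the 10623 genes tested, 27.4% were listed lower and 0.734% higher in these mutants. The Frizzled receptor gene fzd1 (ENSDARG00000106062) was listed at 0 and 0 FPKM in the prdm16 mutant libraries and at 9.85, 10.8 and 8.30 FPKM in the wild type libraries. The gene sfrp1a (ENSDARG00000035521), whose product binds secreted Wnt, was listed at 0 and 0 FPKM in the mutant libraries and at 6.54, 7.61 and 5.69 FPKM in the wild type libraries. The Dickkopf receptor gene kremen1 was listed at 0 and 0 FPKM in the mutant libraries and at 3.21, 2.61 and 2.68 FPKM in the wild type libraries. In the authors' deposited table q was 0.00548 for fzd1, 0.00673 for sfrp1a and 0.00673 for kremen1. The spread behind these q values is that of the wild type libraries alone, since the mutant values do not vary.

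Sfrp1a and fzd1 varied together among the wild type libraries, and kremen1 less so. The ratio of sfrp1a to fzd1 was 0.664, 0.707 and 0.686 in wild type replicates 1, 2 and 3, and that of kremen1 to fzd1 was 0.326, 0.242 and 0.323. Wild type replicate 1 and both prdm16 mutant libraries have the word cleaned in their labels, and that wild type library was between the other 2 in fzd1 and sfrp1a and the highest in kremen1. It was also the highest wild type library in 18 of the 27 pathway genes listed for prdm16. How often it was highest over all rows listed for prdm16 was not counted, so this may not be particular to pathway genes. Wild type replicate 3, the one named for prdm16 in its label, was the lowest wild type library in fzd1 and sfrp1a, at 8.30 and 5.69 FPKM. Whether either of these label words bears on the 0 values of the mutant libraries was not tested.

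Kremen1 is the gene that both comparisons list. It stood at 4.81, 7.09 and 5.55 FPKM in prdm3 mutant libraries, at 0 and 0 FPKM in prdm16 mutant libraries and at 3.21, 2.61 and 2.68 FPKM in wild type libraries. The 3 genotypes did not overlap, but the rows of both comparisons were chosen on such differences. How many of the 339 genes in both tables do not overlap either was not counted. Of all rows listed for prdm16, 84.9% were at 0 in both mutant libraries, and such a 0 can be a failed estimate. Each direction is the common one of its comparison, with 94.2% of the genes listed for prdm3 higher and 2912 of the 2990 rows listed for prdm16 lower. Both comparisons use wild type replicates 2 and 3, and the values of these libraries were the same within 0.01 in 338 of 339 genes in both tables.

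Wild type replicates 2 and 3 give the levels of all 7 genes on one scale. Vangl2 was highest at 16.1 to 18.8 FPKM, followed by ryk at 10.04 to 10.6 and fzd1 at 8.30 to 10.8, which overlapped with ryk. Next came sfrp1a at 5.69 to 7.61, then fzd3a at 2.46 to 3.10 and kremen1 at 2.61 to 2.68, which overlapped with each other, and dkk2 at 1.60 to 1.99. In prdm3 mutant libraries the order was vangl2, ryk, kremen1, fzd3a and dkk2, and no neighbours overlapped. The lowest value of kremen1 was 4.81 and the highest of fzd3a 4.70 FPKM, and the lowest of fzd3a was 4.30 and the highest of dkk2 4.26 FPKM.

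Further genes of the same classes were taken from lists of 31 receptors and receptor turnover genes, 28 secreted modulators and 12 planar polarity genes. Of these 71 genes, 6 (8.45%) were listed higher and 0 lower in prdm3 mutants, beside 12.7% of all genes tested listed higher. Of the 6, 5 are the genes above. The count is 3 without mutant replicate 1 and 2 without mutant replicate 3 or either wild type library. The one other is the polarity cadherin gene celsr3, listed at 8.51, 11.3 and 9.99 FPKM in mutant and 5.61 and 4.95 FPKM in wild type libraries (p = 0.0128 and q = 0.296 in the authors' deposited table). The median log2 difference of the 6 was 0.62, the same as the 0.62 of all listed genes. These values describe genes that passed the authors' threshold, and 65 of the 71 did not or were not tested.

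In prdm16 mutants 11 of the 71 genes (15.5%) were listed lower and 0 higher, beside 27.4% of all genes tested listed lower. A row named LRP4 only through its gene ID was not counted. Of the 11, 9 were at 0 in both libraries, and the count is 7 without either mutant library. Of all rows listed for prdm16, 84.9% were at 0 in both libraries. The 11 genes included 5 Frizzled genes. The most abundant was fzd7b, listed at 0 and 0.455 FPKM in prdm16 mutant replicates 1 and 2 and at 28.7, 27.9 and 22.3 FPKM in the wild type libraries. Its paralog fzd7a was listed at 0.246 and 0 FPKM in the mutant libraries and at 0.955, 1.22 and 0.897 FPKM in the wild type libraries. The paralog of fzd3a, fzd3b, was at 0 in both mutant libraries and at 3.93, 3.49 and 1.81 FPKM in the wild type libraries, and fzd10 at 0 in both and at 1.79, 1.103 and 1.86 FPKM. Reads shared between such close copies could be split by the counting, so single paralogs are uncertain.

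Summed over these 5 Frizzled genes, the level was 0.246 and 0.455 FPKM in the prdm16 mutant libraries and 45.3, 44.5 and 35.1 FPKM in the wild type libraries. In wild type cells fzd7b made up 63.2% ± 0.389 of this sum and fzd1 23.2% ± 1.26 (SD, n = 3). The other 3 made up 7.22% ± 1.83 (fzd3b), 3.91% ± 1.41 (fzd10) and 2.47% ± 0.326 (fzd7a). Among the Frizzled genes of the prdm16 table, fzd1 was thus the second most abundant in each wild type library. Frizzled genes that are not in the table have no part in this sum or in these shares. The 5 genes were summed because they were listed, all of them lower, so the gap between the groups follows from that choice. A 0 in the mutant libraries can be a failed estimate.

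The remaining listed genes of these classes were at 0 in both prdm16 mutant libraries. The secreted R-spondin gene rspo3, whose product strengthens Wnt signalling, stood at 1.55, 1.62 and 1.99 FPKM in the wild type libraries. The secreted serpin gene serpinf1 stood at 6.29, 7.69 and 6.40 FPKM, at about the level of sfrp1a. The polarity genes prickle1b and celsr1a stood at 23.6, 16.9 and 10.47 FPKM and at 1.13, 1.03 and 1.01 FPKM. The wild type libraries differed more in prickle1b than in the other genes of its class, and wild type replicate 3 was lowest in both.

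**Figure D4:**
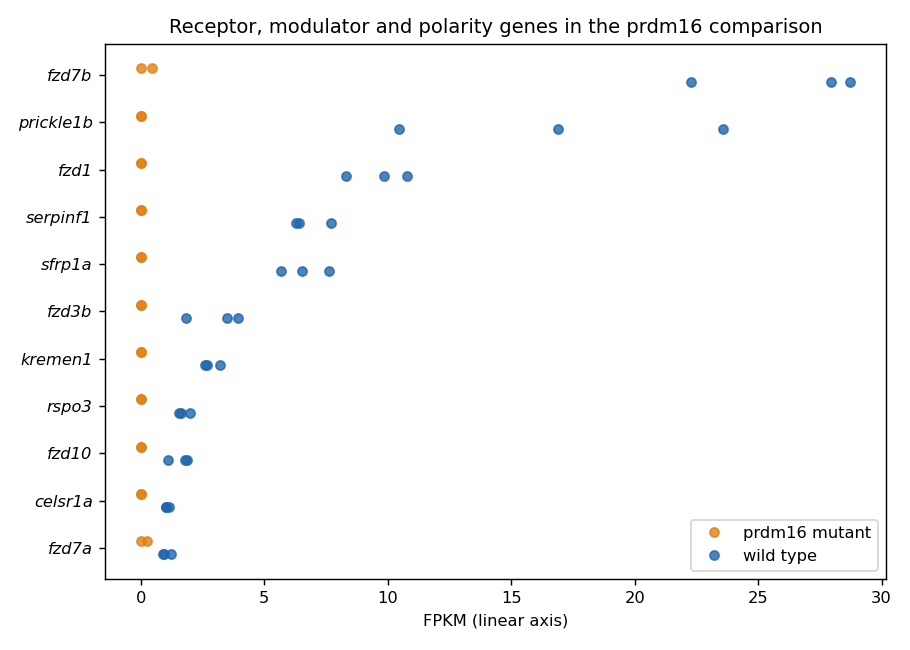
FPKM (horizontal axis) of the 11 receptor, modulator and polarity genes in the prdm16 table, 1 point for each of 2 prdm16 mutant and 3 wild type libraries. The mutant points lie at 0 except 1 library each in fzd7b (0.455) and fzd7a (0.246), and in each gene they lie below the wild type points.

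Ligands and effectors of the pathway gave the setting of these receptors. Of 27 ligand and ligand secretion genes, 0 were listed in prdm3 mutants, beside 12.7% of all genes tested listed higher. In prdm16 mutants 2 (7.41%) were listed lower and 0 higher, beside 27.4% of all genes tested listed lower. A prdm16 row named PORCN only through its gene ID was not counted. The ligand wnt5b, which acts with Ryk and Vangl2 in cell movement, stood at 2.32 and 0 FPKM in prdm16 mutant replicates 1 and 2 and at 24.03, 31.4 and 25.6 FPKM in the wild type libraries. The ligand wnt10a was at 0 in both mutant libraries and at 1.87, 2.05 and 1.39 FPKM in the wild type libraries. Wnt5b was the gene with the highest mutant value among the 27 pathway genes of all 5 lists in the prdm16 table. Of these 27, 19 were at 0 in both mutant libraries, 8 were above 0 in 1 of them and 0 in both. Among all rows listed for prdm16, 84.9% were at 0 in both mutant libraries.

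Of 43 intracellular effectors, 8 (18.6%) were listed higher and 0 lower in prdm3 mutants, beside 12.7% of all genes tested listed higher. Those with the smallest p were the destruction complex gene apc2 (9.22 ± 0.798 FPKM in mutant and 4.38 ± 0.868 in wild type cells), the kinase gene csnk1g2a (7.45 ± 1.04 and 3.55 ± 0.437) and the β-catenin cofactor gene bcl9 (31.7 ± 2.05 and 23.5 ± 1.23). The kinase gene gsk3ba, listed under its synonym gsk3b, whose product marks β-catenin for destruction, stood at 13.5 ± 1.26 FPKM in mutant and 9.02 ± 0.653 FPKM in wild type cells. In prdm16 mutants 14 of the 43 (32.6%) were listed lower and 0 higher, beside 27.4% of all genes tested listed lower. The transcription factor gene lef1 was at 0 in both mutant libraries and at 6.91, 6.25 and 6.66 FPKM in the wild type libraries. The Dishevelled gene dvl3a, whose product relays the signal from Frizzled, was at 0.0561 and 0 FPKM in the mutant and at 5.47, 5.17 and 4.20 FPKM in the wild type libraries. The cofactor gene pygo2 (13.6, 8.41 and 10.6 FPKM in wild type) and the feedback inhibitor gene nkd2a (10.1, 9.997 and 6.51 FPKM in wild type) were at 0 in both.

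The genes whose levels ran most closely with a member were sought among 1261 listed genes above 0 in all 5 libraries of the prdm3 comparison, by Pearson's r of log2(FPKM + 1). With 5 libraries that share the same contrast, many genes reach a high r, and the values are a description. Nearest to kremen1 were the homeobox genes alx4a (r = 0.999) and six4b (r = 0.998). Alx4a, a gene of the frontonasal crest, stood at 13.3, 17.0 and 14.5 FPKM in mutant and 8.81 and 9.15 FPKM in wild type libraries. Nearest to fzd3a were dmd (r = 0.9996), which encodes dystrophin, and chmp6b (r = 0.998). Nearest to vangl2 were the DNA damage gene topbp1 (r = 0.9996) and myg1 (r = 0.999). Nearest to ryk were the replication clamp unloader gene atad5a (r = 0.9996) and tbc1d25 (r = 0.999), and nearest to dkk2 were mlf2 (r = 0.998) and rnf126 (r = 0.998).

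The neighbours of the 7 genes on the chromosome, taken by gene order from RefSeq's annotation of GRCz12tu, were looked up by symbol. Of the 28 protein-coding genes within 2 places on either side, 1 (3.57%) was listed higher in prdm3 mutants, slc39a14, 2 places from kremen1, beside 12.7% of all genes tested. In prdm16 mutants 6 (21.4%) were listed lower, beside 27.4% of all genes tested. The 28 may include genes that were not tested, so the neighbour shares and the shares of tested genes differ in base. The Wnt receptor ubiquitin ligase gene znrf3 lies 2 places from kremen1 and was in neither table. Next to fzd1, cdk14, which encodes a kinase that acts on Lrp6, was among the 6.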

How the data were processed

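RNA-seq was made from sorted sox10:GFP cells with Trizol, a column kit and a Pico input kit, per the labels' protocols. Tools listed in the submitters' processing notes include TopHat2 2.1.1 and Cufflinks, with the build danRer11 and no roles. Each of the 2 tables deposited by the authors gives library values, group means, a signed fold change (a score), a p-value and a q-value. The library values deposited by the authors carry no named unit and are read here as FPKM, since Cufflinks writes that unit and fractions occur among them. No step of whole reads was found in the low values, so depth is unknown. The authors' test is not named. Recomputing p from log2(FPKM + 1), two-sided with equal variances, came within 1% of theirs in all 1520 and 2990 rows, and the numbers tested, 11242 and 10623, follow from p, q and rank.

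Differences are of mean log2(FPKM + 1), with ordinary SE from a fit to every listed row in limma 3.58.1 (R 4.3.3), tested on simulated data. Adding 1 understates the change of low genes. Libraries were matched to columns by name, and 0 columns of per-sample values went unused. Replicate numbers are those of the titles. The members and lists were chosen with earlier results of these data known. Named are the 7 members, all listed genes of the receptor, modulator and polarity lists, up to 4 genes with the smallest p of the other lists, the 2 listed genes with a symbol nearest to each member above 0 in every library, and genes that both tables list. The neighbour genes, psma4 and ndufs5 were added with values in view. Of 141 list symbols, 137 were found in RefSeq. List shares count every list gene, tested or not, while the shares beside them are of tested genes. The prdm16 rows that only the gene ID table names PORCN and LRP4 were not counted. They are missing from the prdm16 counts of the ligand, receptor and pathway genes and from the genes named. A planned comparison of ATAC peaks at these genes was not made, since the peaks are on danRer11 and the gene positions used here are on GRCz12tu. Alternatives were another pseudocount, another scaling, filters on low values and on zeros, limma calls, a replicate block and leaving out each library.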

Additional observations from a re-analysis of the deposited data

Results flagged for a closer look

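In 4 pathway genes every prdm3 mutant library lay above, and every prdm16 mutant library below, all wild type libraries of its comparison. These directions are the common ones: 94.2% of the genes listed for prdm3 were higher, and 2912 of the 2990 rows listed for prdm16 were lower. Both comparisons list 339 genes, and how many of them show this pattern was not counted. The difference between the mutants was not tested. The comparisons share wild type replicates 2 and 3. The 4 genes are the Dickkopf receptor gene kremen1, the feedback inhibitor gene nkd1 and the casein kinase genes csnk1a1 and csnk1g2a. They are all the genes of the 5 lists that were counted in both comparisons. All 14 list genes counted for prdm3 were higher and all 27 counted for prdm16 lower, so these 4 share the direction of every listed pathway gene. Their mean in prdm3 mutant cells was 5.82 FPKM for kremen1, 6.78 for nkd1, 12.8 for csnk1a1 and 7.45 for csnk1g2a. In the prdm16 mutant libraries kremen1, nkd1 and csnk1a1 were at 0, and csnk1g2a was at 0.171 and 0 FPKM. In the wild type libraries of the prdm16 comparison nkd1 stood at 5.34, 3.74 and 3.75 FPKM. There csnk1a1 stood at 19.98, 10.1 and 7.96 FPKM and csnk1g2a at 6.37, 3.24 and 3.86 FPKM. Wild type replicate 1, the first of these values, is not in the prdm3 comparison. In csnk1a1 it lay above all 3 prdm3 mutant libraries (13.2, 12.5 and 12.7 FPKM). In csnk1g2a it lay just below the lowest prdm3 mutant value (6.69 FPKM), and in nkd1 and kremen1 below all of them. All prdm3 differences are as deposited, without scaling to the listed genes.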

How the results depend on the processing

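Scaling the libraries to equal medians over listed genes above 0 everywhere turned the prdm3 log2 difference of ryk to -0.47, of fzd3a to -0.051 and of vangl2 to -0.38, and left kremen1 at 0.28 and dkk2 at 0.14. Since 94.2% of those genes are higher, this scaling takes their common rise away by construction. It moved the prdm16 median by 0.34. Since the groups did not overlap in these genes, leaving out 1 library could not change the direction of a difference. The log2 difference then ran from 0.21 to 0.27 for ryk, 0.43 to 0.67 for fzd3a and 0.76 to 1.00 for kremen1. It ran from 0.57 to 0.80 for dkk2 and from 0.25 to 0.46 for vangl2.

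Recounting with 1 library left out, added after seeing the data, gave 2 to 4 of the 6 receptor, modulator and polarity genes and 4 to 8 of the 14 pathway genes in the prdm3 table. It gave 7 to 9 of 11 and 14 to 19 of 27 in the prdm16 table. The 6 became 3 without prdm3 mutant replicate 1 and 2 without mutant replicate 3, wild type replicate 2 or wild type replicate 3. The 14 became 8, 7 and 6 without mutant replicates 1, 2 and 3 and 4 and 6 without wild type replicates 2 and 3. The 11 became 7 without prdm16 mutant replicate 1 or 2. The 27 became 14 without either mutant library and 17 without wild type replicate 1 or 2. Each such count has fewer samples by construction. Without a prdm16 mutant library, or a wild type library of the prdm3 comparison, 1 library is left in its group and is assumed to vary like those of the other group. In the prdm16 table, leaving out genes at 0 throughout a group left 2 of the 11 and 8 of the 27, and a mean of 2 FPKM or more left 7 of the 11.

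Limma's adjusted p below 0.05 over the listed genes held for 5 of 6 and 13 of 14 genes in the prdm3 table and for 11 of 11 and 27 of 27 in the prdm16 table. Among all listed rows it held for 1471 of 1520 in the prdm3 table and 2990 of 2990 in the prdm16 table. With the replicate block it held for 1394 and 2988 of them. The counts of list genes therefore follow from the choice of rows. The replicate block used the 2 numbers that the groups of each comparison share. Limma with that block counted 4 of 6 and 12 of 14, and 11 of 11 and 27 of 27, and the block left ryk at 0.25, fzd3a at 0.54, kremen1 at 1.00, dkk2 at 0.69 and vangl2 at 0.38. Deviations of same-numbered libraries correlated at -0.04 in the prdm3 and 0.01 in the prdm16 comparison across listed genes. In the latter, 2540 of 2990 rows were at 0 in both mutant libraries and have no mutant deviation. Listed rows were also chosen by a p that favours a small spread within groups. These values therefore cannot decide whether the title numbers pair libraries. In the prdm3 comparison the block uses the same libraries as leaving out mutant replicate 1 and gives the same differences. The other numbers, which open the labels, could not be used as a block, since the groups share only 1 of them in each comparison. These adjusted p come from genes already chosen. The ATAC alternatives were not run. Unknown depth limits what a 0 can show.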
